A study of Mus musculus with 6 samples.

Results

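Among the open chromatin regions that ATDC5 cells lost during differentiation, 3865 had an intermediate peak rank at day 3. They are 5.23% of the 73933 regions in all. ATDC5 is a mouse line of chondrocyte precursors, and ATAC-seq measures where the Tn5 transposase can insert adapters, that is, where chromatin is accessible. The 3 groups were Day0 (labelled control, cells plated as dense droplets and left to attach), Day3 and Day10 (both labelled differentiation, given beta-glycerophosphate and ascorbate-2-phosphate to differentiate them), each with 2 libraries described as biological replicates. All groups are the same cell line, with no modification named in the labels, and come from whole cultures frozen without fixation, so a mixture of cell states within a culture cannot be told apart from a uniform change in every cell. The deposited files list peaks for each library alone.

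The members were chosen by peak rank. In each library the peaks of chromosomes 1 to 19 and X were ranked by the authors' fold over background, and overlapping peaks among the 50000 best of all 6 libraries were merged into regions. A region here called strong on a day overlapped one of the 50000 best peaks in both libraries of that day, and a region called out on a day overlapped none of the 100000 best in either library. A lost region was strong at Day0 and out at Day10, which held for 6220 regions, or 8.41% of all. The same rule between neighbouring days gave 405 regions for Day3 against Day0 (0.548%) and 2479 for Day10 against Day3 (3.35%), while 8375 regions (11.3%) were gained at Day10 by the mirror rule. An intermediate region was neither strong nor out at Day3. Of the lost regions, 62.1% were intermediate at Day3, 32.2% (2003 regions) were still strong and 5.66% (352 regions) were already out. The 95% Wilson interval of the first share, 60.9% to 63.3%, covers counting error only and takes regions as independent, which neighbours are not. It leaves out the choice of limits: with other rank limits this share ran from 48.9% to 73.7%. Because the ranks of all 6 libraries chose the members, their heights on the 3 days are a description and were not tested. With 2 libraries against 2, the smallest two-sided exact permutation p is 0.333.

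By way of background, accessible regions away from gene starts are mostly enhancers, where transcription factors hold the DNA free of nucleosomes, and a region closes when those factors leave or nucleosomes are placed over it. As mesenchymal precursors become chondrocytes, the factors of the precursor state give way to those of the cartilage programme, with SOX9 at its head, and sets of enhancers are closed and opened along the way. A region with a middle signal in bulk chromatin can be open in fewer cells or less often open in each cell, and these cannot be told apart here.

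Heights are given as enrichment, the number of overlapping reads at the peak summit divided by the background level of its library, both recovered from the authors' fold. Per the files, 164237 and 164579 peaks were used at Day0, 177334 and 176710 on Day3, and 380813 and 389571 on Day10. The depth estimated from background and smallest peak width, relative to Day0 replicate 1, was 0.997 in Day0 replicate 2, 1.13 and 1.11 on Day3, and 1.96 in both Day10 libraries. Both Day10 libraries also had smaller minimum peak widths, 68 and 72 bases, while those of the other libraries were 87 to 90. All peak names in the Day3 files, and none in the others, hold the word lysis. A separate handling of the Day3 or the Day10 libraries therefore cannot be told apart from the day.

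The members stood at 3 separate levels on the 3 days, which the rank limits of the rule in large part require. On Day0 their median enrichment was 50.2 and 50.6. On Day3 it was 23.8 in each library. On Day10 it was 10.1 and 9.55, with members not listed at Day10 placed at the lowest level the list holds (4.61 and 4.34). The quartiles of the days did not overlap: they ran from 44.7 to 57.2 in Day0 replicate 1, from 18.8 to 28.8 in Day3 replicate 1 and from 6.45 to 13.8 in Day10 replicate 1. Of the 3865 members, 3862 had both Day3 values below both Day0 values, and 3753 (97.1%) had both Day10 values below both Day3 values. Among all regions strong at Day0, 76.8% had both Day3 values below both Day0 values, so a lower height at Day3 by itself was common. The matching share for Day10 below Day3 was not computed over those regions.

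**Figure D1:**
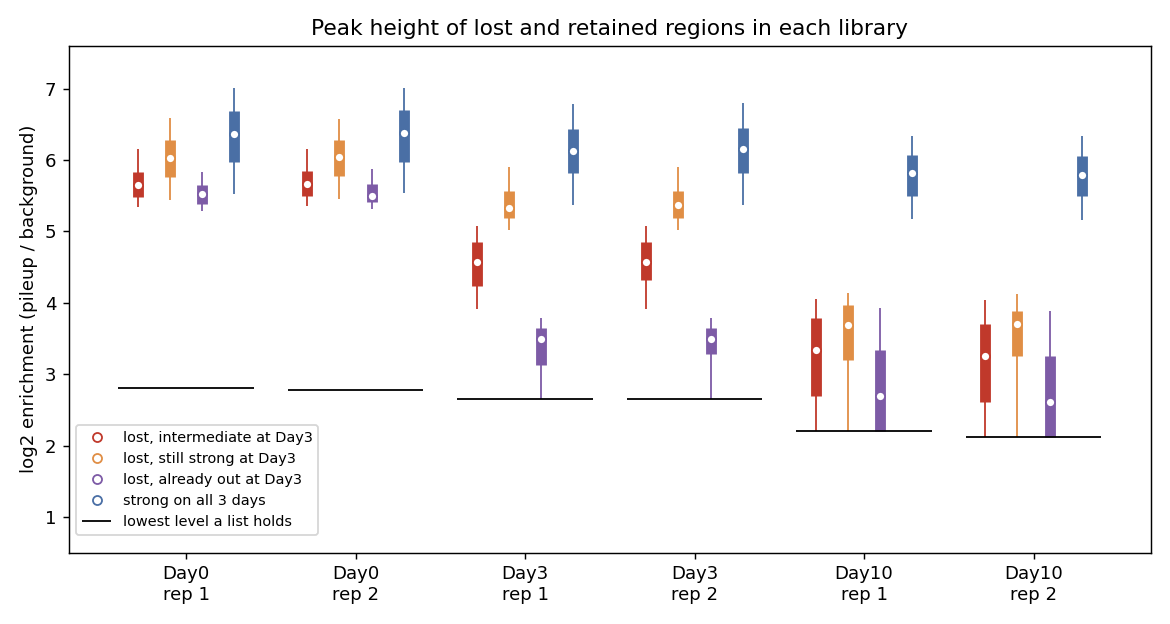
Peak height in each library, as log2 of enrichment, for lost regions intermediate at Day3, lost regions still strong at Day3, lost regions already out at Day3, and regions strong on all 3 days. Circles are medians, thick bars quartiles, thin lines the 5th to 95th percentile, and black lines the lowest level each list holds, at which regions not listed are placed. The members' medians were near 50 on Day0, 23.8 on Day3 and 10 on Day10.

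On the log2 scale, the median member was lower at Day3 than at Day0 by a difference of -1.11 and lower at Day10 than at Day0 by -2.43. Regions strong on all 3 days were themselves lower, by -0.21 on Day3 and -0.55 on Day10, so relative to them the members' differences were -0.90 and -1.87. Those regions were higher at Day0, with medians of 82.3 and 83.5. Among regions whose poorer Day0 rank lay beyond 30000, those strong on all 3 days differed by -0.002 on Day3 and -0.21 on Day10. The members in that range differed by -1.05 and -2.34. All regions strong at Day0 in that range, members among them, differed by -0.38 and -0.70. Regions strong on all 3 days were picked by the same ranks for staying high. Their distance from the members is therefore in part set by the rule. The 2 libraries of a day lay much closer together. The rule asks for a difference between Day0 and Day10 and holds both libraries of each to the same limit. This contrast is therefore a description. The median absolute log2 difference between replicates in the members was 0.10 on Day0, 0.18 on Day3 and 0.17 on Day10, the last over the 2873 members listed in both libraries. For those 2873 members, the step by Day3 made up a median of 48.1% of the whole log2 difference between Day10 and Day0. The same share was 25.9% in the lost regions still strong at Day3 and 92.7% in those already out, an order that the rule itself sets.

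With regions not listed at Day10 placed at the lowest level of the list, the members differed from Day0 about as much as the lost regions still strong at Day3. The median log2 difference between Day10 and Day0 was then -2.43 in the members, -2.43 in those still strong and -2.94 in those already out. Over regions listed in both Day10 libraries it was -2.18 in 2873 members, -2.38 in 1846 still strong and -2.21 in 180 already out. The order of the classes thus depended on the unlisted regions. The members had started lower, with a median Day0 enrichment of 50.2 and 50.6, while those still strong had 65.6 and 65.7. The regions already out at Day3 had started lower than the members, at 46.1 and 45.2. Membership in these timing classes thus moved with the Day0 height.

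The share of members climbed steeply with poorer Day0 rank. Taking the poorer of the 2 Day0 ranks, 1 of 8705 regions within the 10000 best was a member. Among the 8894 regions ranked from 30000 to 40000 there were 1301 members (14.6%), and among the 9046 ranked from 40000 to 50000 there were 2000 (22.1%). In the last class 30.3% of regions were strong on all 3 days, and in the first class 94.98%. A region near the rank of 50000 needs only a small decrease to leave it, so this order follows in part from the rule.

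**Figure D2:**
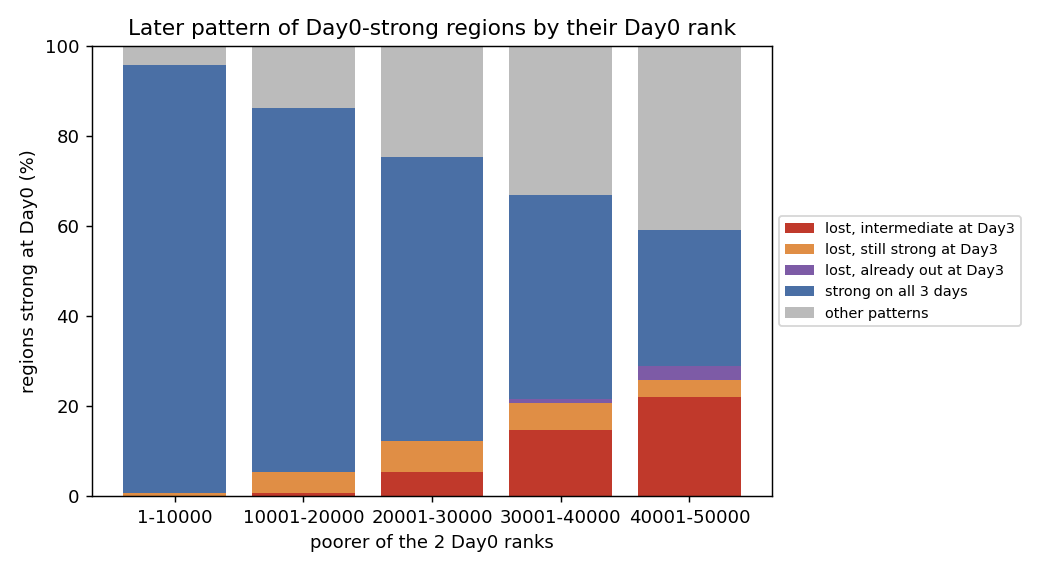
Later pattern of the regions strong at Day0, as a percent of the regions in each class of Day0 rank (the poorer of the 2 libraries). Members make up 0.011% of the first class and 22.1% of the last, while regions strong on all 3 days make up 94.98% and 30.3%.

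When the members were divided into 4 classes of Day0 height, the strongest class had the largest step by Day3. In the 975 members with the lowest Day0 mean enrichment (39.4 to 44.9) the median log2 difference between Day3 and Day0 was -0.97. In the 966 members with the highest (57.3 to 106) it was -1.30. Their Day3 heights were closer together than their Day0 heights, with a median of 21.9 in the lowest class and 27.6 in the highest. The upper limit that the rule sets on Day3 height fixes part of this pattern.

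The Day3 libraries agreed on most members. In 2912 members (75.3%) the best peak ranked between 50000 and 100000 in both Day3 libraries. In 674 (17.4%) it was within the 50000 best in 1 library, in replicate 1 for 336 and in replicate 2 for 338. In 279 (7.22%) it was beyond 100000 in 1 library, in replicate 1 for 145 and in replicate 2 for 134. Neither Day3 library thus led the disagreements. Median enrichment followed these patterns at Day3, with 31.3 and 32.6 in the first of the 2 divided sets, 23.8 and 23.8 in the set that agreed, and 13.8 and 15.03 in the second divided set.

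What was left at Day10 moved with the Day3 height. Of the 3865 members, 2873 (74.3%) still had a listed peak in both Day10 libraries, 288 (7.45%) in 1 and 704 (18.2%) in neither. The share with none was 9.20% in members that reached the 50000 best in 1 Day3 library, 19.4% in those between the limits in both, and 27.2% in those beyond 100000 in 1. The members listed in both Day10 libraries and those listed in neither had almost the same Day0 height, a median of 50.2 and 50.6 in the first set and 50.2 and 49.3 in the second. At Day3 they had 25.05 and 25.05 in the first set, and 21.3 and 21.3 in the second. Because the Day10 lists reach down to lower levels than the others, being listed there does not mean as much as at Day0: the median -log10 q of listed Day10 peaks in the members was 7.92 and 8.68, while at Day0 it was 46.2 and 47.6.

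Equal ranks stood for different heights on different days. In the Day10 libraries a peak at rank 100000 had an enrichment of 18.4 or 18.2, against 13.8 or 15.03 in those of Day3, so a region could be intermediate at Day3 and out at Day10 with hardly any change in height. This touched few members. In 28 (0.724%) the mean Day10 enrichment was not below the mean Day3 enrichment, and in 6 both Day10 values exceeded both Day3 values. Measured against the median difference of regions strong on all 3 days, 186 members (4.81%) were not lower at Day10 than at Day3. That median was -0.36, and -0.20 among such regions with a poorer Day0 rank beyond 30000. The count was not repeated with the second value. When the same fold limits were used for every library in place of ranks (15 for strong and 8 for out), 3791 regions met the rule.

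To read the heights in libraries that had no part in the choice, the rule was applied to replicate 1 of each day alone and the values were taken from replicate 2, and then the reverse. Replicate 1 alone gave 4216 regions. In replicate 2 their median enrichment was 47.9 on Day0, 23.8 on Day3 and 9.55 on Day10, and 97.0% were in the order Day0 above Day3 above Day10. Replicate 2 alone gave 4235 regions, with medians of 47.4, 23.8 and 10.1 in replicate 1 and 96.8% in that order. All 3 rank conditions were met again by 69.6% and 69.3% of these regions. The condition most often missed was that of Day0 or Day3, each met by 85.1% to 86.1%, and the Day10 condition was met by 94.1% and 95.3%. These libraries are other replicates of the same days, so the values bear on the choice of regions and not on the effect of time. The share in that order was not computed over other regions. Regions strong on all 3 days were lower at Day3 than at Day0 in 80.1% (replicate 1) and 79.2% (replicate 2). They were lower at Day10 than at Day3 in 85.4% and 86.7%, so each step by itself was common.

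The 10 members with the best Day0 ranks give the pattern in single regions. Positions are those of the files, read as GRCm39 and counted from 1, and the annotation at hand is of another build, so no gene is given for them. The first, chr2:148366965-148367948, had an enrichment of 109 and 103 on Day0, 31.3 and 27.6 on Day3, and 6.45 and 9.55 on Day10. It was the single member within the 10000 best of both Day0 libraries. Its best peak was 897 and 984 bases wide at Day0 and 712 and 444 on Day3. The second, chr1:151047208-151048415, had 96.3 and 95.8 on Day0, 28.8 and 28.8 on Day3, and 7.38 and 6.95 on Day10. In both regions all values of a day lay below those of the day before.

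The third, chr15:25444198-25444742, had 99.1 and 94.4 on Day0, 32.6 and 30.1 on Day3, and 10.1 and 10.4 on Day10. The fourth, chr5:151175203-151175572, had 92.1 and 97.2 on Day0, 32.6 and 30.1 on Day3, and 8.30 and 9.55 on Day10. The fifth, chr10:82798321-82798945, had 94.9 and 90.3 on Day0, 33.8 and 28.8 on Day3, and 10.1 and 9.55 on Day10. These 3 regions had nearly the same course, and each reached the 50000 best in Day3 replicate 1 and not in replicate 2.

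The sixth, chr15:79697823-79698347, kept the most at Day10, with 90.7 and 88.9 on Day0, 30.1 and 41.3 on Day3, and 14.8 and 15.6 on Day10. The seventh, chr13:102618858-102619339, was the lowest of the 10 on Day3, with 87.9 and 94.4 on Day0 and 17.5 and 20.04 on Day3, and had no listed peak at Day10. The eighth, chr9:30110594-30111298, had 89.3 and 87.6 on Day0, 27.6 and 30.1 on Day3, and also no listed peak at Day10. The Day10 lists are the longest, so these 2 regions left no peak in the lists that reach lowest.

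The ninth, chr17:25086685-25087203, had 89.3 and 87.6 on Day0, 38.8 and 31.3 on Day3, and 12.0 in Day10 replicate 1, and was not listed in replicate 2. The tenth, chr2:9738001-9738555, had 85.1 and 91.7 on Day0, 41.3 and 30.1 on Day3, and no listed peak at Day10. Over the 10 regions, the Day0 values did not overlap the Day3 values, and the Day3 values did not overlap the Day10 values. Distance to the nearest region strong on all 3 days varied widely among them, from 2469 bases for the third to 112663 bases for the tenth.

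**Figure D3:**
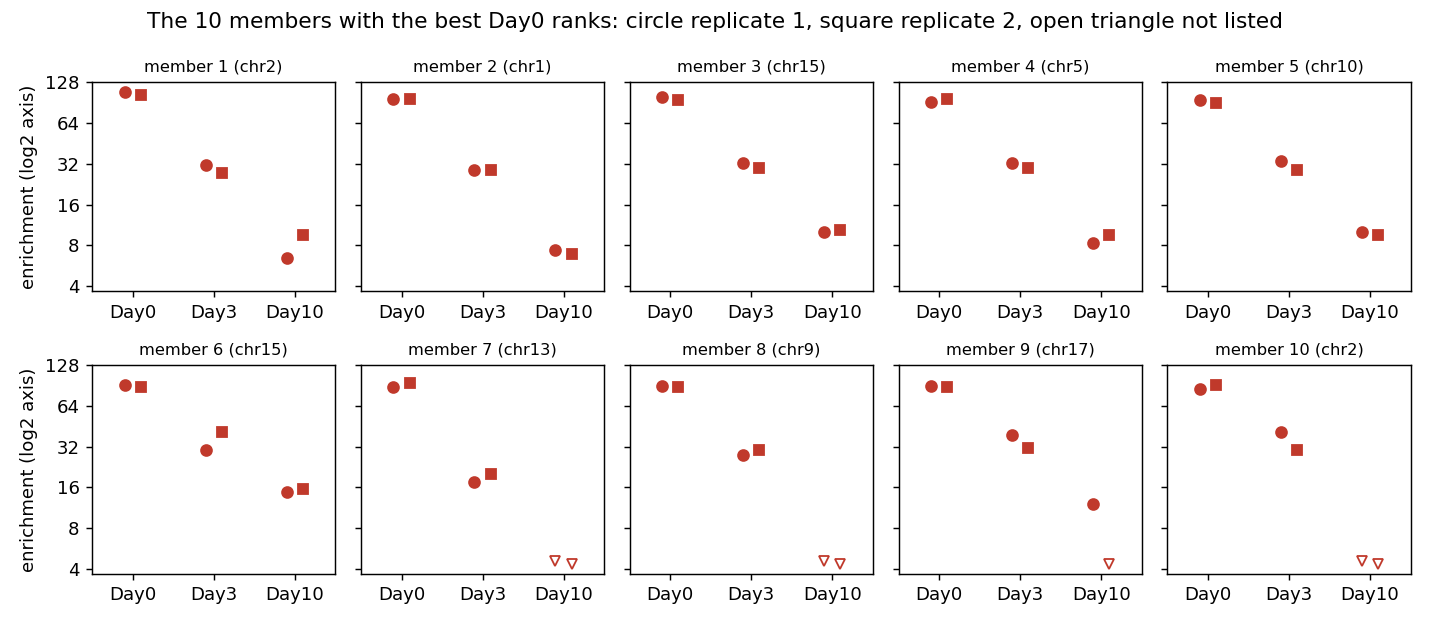
Enrichment, on a log2 axis, of the 10 members with the best Day0 ranks. Circles are replicate 1, squares replicate 2, and open triangles mark libraries with no listed peak, drawn at the lowest level of that list. In every panel both Day3 values lie between the Day0 and the Day10 values.

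The 5 members with the best Day3 rank in either library are by that choice members on which the Day3 libraries differed. On chromosome 16, chr16:13847044-13848403, the widest member at 1360 bases, had 99.1 and 83.5 on Day0, 28.8 and 46.3 on Day3, and 14.8 and 11.3 on Day10. On chromosome 7, chr7:37550910-37551340 had 71.2 and 69.8 on Day0, 31.3 and 45.1 on Day3, and no listed peak at Day10. On the X chromosome, chrX:93065971-93066799 had 48.8 and 52.0 on Day0, 42.6 and 32.6 on Day3, and 14.8 and 11.3 on Day10, the smallest step by Day3 among these, with a log2 difference of -0.42. In all of them the Day3 replicates differed by more than the Day0 replicates of the members usually did.

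The same was seen in the 2 remaining regions of that set. The region chr2:134660558-134661643 had 60.0 and 73.9 on Day0, 43.8 and 30.1 on Day3, and 14.8 and 12.2 on Day10. The region chr4:58268805-58269499 had 68.4 and 68.4 on Day0, 31.3 and 43.8 on Day3, and 17.5 and 13.9 on Day10. Across the 5 regions the higher Day3 value was in replicate 1 for 2 of them and in replicate 2 for 3.

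The 5 members with the poorest Day3 ranks all lay on chromosome 1, because tied peaks are ordered by chromosome and all 5 had the same enrichment of 13.8 in Day3 replicate 1. Among them, chr1:134119004-134119268 had 39.1 and 41.1 on Day0, 13.8 and 8.77 on Day3, and 15.7 and 13.0 on Day10. Its Day10 mean was above its Day3 mean, so it was not lower at Day10 than at Day3. The region chr1:83077382-83077693 had 39.1 and 45.2 on Day0, 13.8 and 8.77 on Day3, and 6.45 and 6.08 on Day10. The region chr1:93070665-93071220 had 43.3 and 52.0 on Day0, 13.8 and 11.3 on Day3, and 11.1 and 10.4 on Day10. In the last 2 regions, chr1:40914219-40914617 and chr1:13539684-13540015, the Day3 values were 13.8 and 13.8, and 13.8 and 11.3, and each had a listed peak in a single Day10 library.

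Members at the limits of the rule had the same or nearly the same heights as regions just outside it. At the Day0 limit, the last 2 members and the first 2 regions left out all had an enrichment of 39.7 in Day0 replicate 2, since 1666 peaks of that library share the height at rank 50000. At the upper Day3 limit, the 2 nearest members had 32.6 in Day3 replicate 2 and the 2 nearest regions still strong had 32.6 in replicate 2 or 31.3 in replicate 1. At the lower Day3 limit, the nearest members and the nearest regions already out all had 13.8 in Day3 replicate 1. At the Day10 limit, the 2 nearest members had 18.4 in Day10 replicate 1, and the 2 nearest regions left out had 18.4 in replicate 1 or 18.2 in replicate 2. Between 4925 and 8220 peaks per library tie at rank 100000.

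Peak width and summit position did not enter the rule, but both come from the peaks that were ranked, so they too are a description. The members had narrow peaks, narrower on each later day. Their best peak had a median width of 384 and 388 bases at Day0, 285 and 284 on Day3, and 178 and 185 on Day10. In lost regions still strong at Day3 it was 453 and 454 on Day0, 417 and 407 on Day3, and 207 and 217 on Day10. In those already out it was 334 and 339, then 154 and 149, then 160 and 164.5. Peaks narrower after Day0 were thus not particular to the members. In regions strong on all 3 days the median width was 695 and 701 on Day0, 791 and 780 on Day3, and 784 and 813 on Day10. Width grows with height in such lists, so the comparison was repeated among regions whose poorer Day0 rank lay beyond 30000. There the 3301 members had a Day0 width of 370 and 375 bases with an enrichment of 48.8 and 47.9, and the 6769 regions strong on all 3 days had 441 and 445 bases with an enrichment of 51.6 and 52.0. The members were thus narrower at Day0 with a height a little lower, and how much of the width goes with the height was not tested.

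The merged regions of the members were also narrower than those of regions that stayed open. The median width was 416 bases in the members (160 to 1360), 526 in lost regions still strong at Day3, 358 in those already out and 1013 in regions strong on all 3 days. A merged region takes in the peaks of every day, so regions with peaks on more days are wider for that reason too.

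The summits of the members lay close together across days. The median distance between the summits of the 2 Day0 libraries was 10 bases in the members, and between the 2 Day3 libraries 15 bases. Between a Day3 and a Day0 library it was 16 or 17 bases, and 81.7% to 82.9% of members had their summits within 50 bases of each other. Between a Day10 and a Day0 library it was 28 or 29 bases, over the 2988 and 3046 members listed there, while the 2 Day10 libraries were 17 bases apart. In regions strong on all 3 days the Day10 to Day0 distance was 17 to 20 bases and the replicate distance was 9 on each day. The summit of a low peak is placed by few reads, and how far this moves the Day10 summits of the members was not tested. The best Day3 and Day0 peaks themselves overlapped in at least 99.8% of members, and 3 to 7 members per pair of libraries had peaks in different parts of the merged region.

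**Figure D4:**
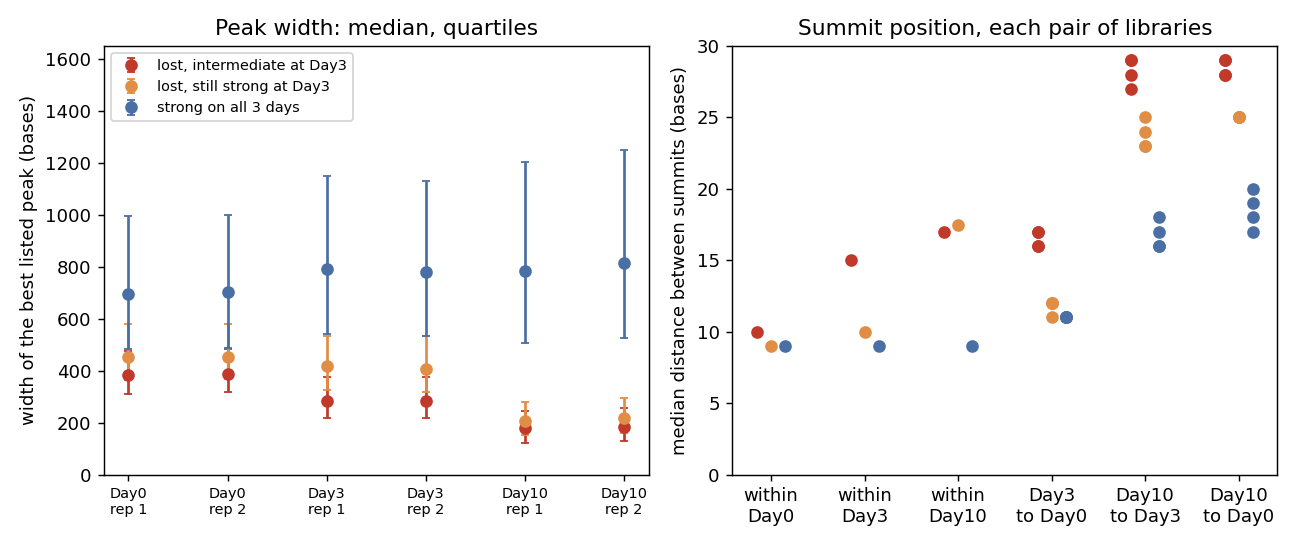
Left, width of the best listed peak in bases (median and quartiles) in each library. Right, median distance in bases between the summits of 2 libraries, 1 point per pair of libraries. Red is lost regions intermediate at Day3, orange is lost regions still strong at Day3 and blue is regions strong on all 3 days. The members' peaks were 178 and 185 bases wide at Day10, and their Day3 and Day0 summits lay a median of 16 or 17 bases apart.

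Members were found on all 20 chromosomes used. They made up 8.56% of the 45155 regions strong at Day0, with the highest share on the X chromosome (12.3%, 117 of 949) and on chromosome 3 (11.5%, 225 of 1962). The lowest share was on chromosome 11 (6.05%, 204 of 3370), and the next lowest on chromosome 5 (7.28%, 243 of 3340). Among Day0-strong regions ranked beyond 30000 the same chromosomes stood at the ends, with 24.4% on X, 22.5% on chromosome 3 and 12.9% on chromosome 11. Chromosome 5 had 18.3% there, in the middle of the range. Across the 20 chromosomes the share of members and the share of Day0-strong regions with such poorer ranks had a Spearman rho of 0.77, given as a description, since both rest on the same Day0 lists.

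On the X chromosome the members also took more of the lost regions than elsewhere, 75.0% (117 of 156), with 57.4% to 66.1% on the autosomes. Chromosomes with many members tended to have few gained regions, those out at Day0 and strong at Day10. Gained regions made up 7.95% of all regions on X and 8.25% on chromosome 3, and 12.0% on chromosome 11 and 13.2% on chromosome 5. Over the 20 chromosomes rho was -0.57, again as a description, since both shares rest on the same ranked lists. The median step by Day3 was similar on all of them, from -0.997 on chromosome 18 to -1.19 on chromosome 1.

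**Figure D5:**
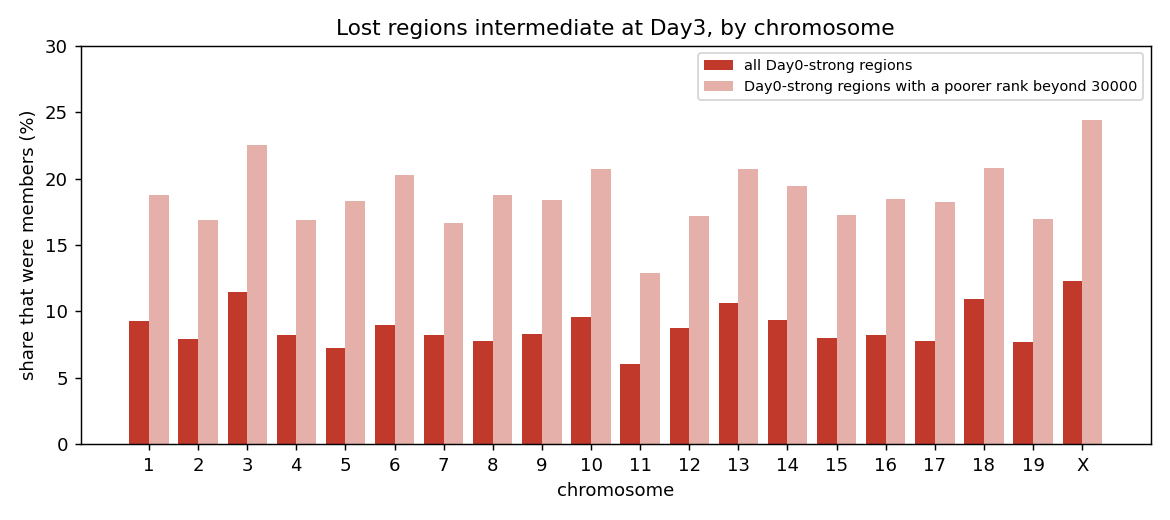
Members as a percent of the regions strong at Day0 on each chromosome (dark bars) and as a percent of those with a poorer Day0 rank beyond 30000 (light bars). X has the highest bars, 12.3% and 24.4%, and chromosome 11 the lowest, 6.05% and 12.9%.

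The members lay in sparser surroundings than the regions that stayed open. The median distance between centres to the nearest region strong on all 3 days was 19207 bases for members, and 11545 bases between the regions strong on all 3 days themselves. For Day0-strong regions as a whole it was 12765 bases. The other lost regions lay on both sides of the members, at 26918 bases for those still strong at Day3 and 13041.5 for those already out. Sparse surroundings were thus not particular to the members. A region strong on all 3 days lay within 10000 bases of 34.3% of members and of 43.4% of all Day0-strong regions. With the Day0 rank held beyond 30000, the distance was 20100 bases for members and 11847 for regions strong on all 3 days, so the difference was also seen within that range of Day0 height. The gap was smaller for the nearest other Day0-strong region, whatever its later pattern. That distance was 9352 bases for members, 7406 for regions strong on all 3 days and 7618 for all Day0-strong regions. It was 11545 bases for lost regions still strong at Day3 and 6061.5 for those already out. Distance to the nearest gained region was 105963 bases for members and 67579 for all Day0-strong regions. It was 130298 bases for lost regions still strong at Day3 and 81365 for those already out. A gained region lay within 50000 bases of 31.95% of members and of 42.2% of all Day0-strong regions.

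Loss was more frequent next to loss. For 20.6% of the members the nearest other Day0-strong region was itself lost, while this held for 13.5% of all Day0-strong regions and for 11.3% of the regions strong on all 3 days. For the timing class the shares lay near the share over all lost regions. Of the 1524 members with another lost region within 50000 bases, the nearest was also intermediate at Day3 in 62.1%, with 62.1% among all lost regions. For the 935 other lost regions with such a neighbour the share was 62.4%. Within 10000 bases it was 57.8% of 491 members and 60.2% of 342 other lost regions. Regions are not independent of their neighbours, and no test was made.

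The densest group of members was on chromosome 3, where 9 lay within 341225 bases (chr3:36243940-36585164). This stretch held 20 regions strong at Day0, of which 11 were lost, 2 of them still strong at Day3, and 8 were strong on all 3 days. None of its 21 regions was gained. The members' median enrichment was 46.1 and 47.9 on Day0, 20.04 and 22.5 on Day3, and 7.38 and 8.68 on Day10. Their steps by Day3 ranged from -0.37 to -1.90 in log2, so neighbours in the group did not move by the same amount. Its member with the best Day0 rank, chr3:36534363-36534982, had 51.6 and 54.7 on Day0, 15.03 and 18.8 on Day3, and 17.5 and 17.4 on Day10, and was thus no lower at Day10 than at Day3 on average.

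The next group, on chromosome 2 (chr2:117493144-117933140), held 8 members among 31 regions strong at Day0, and all 8 of its lost regions were members. Their median enrichment was 55.1 and 56.8 on Day0, 22.5 and 22.5 on Day3, and 11.1 and 10.9 on Day10. All 8 were still listed in at least 1 Day10 library. Its member with the best Day0 rank, chr2:117576167-117576751, had 78.2 and 72.5 on Day0, 17.5 and 22.5 on Day3, and 11.1 and 10.4 on Day10. In this stretch 12 regions were strong on all 3 days and 3 were gained, so lost and gained regions lay in the same stretch.

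The third group was again on chromosome 3 (chr3:41123888-41502146), with 8 members among 19 regions strong at Day0. Of its 10 lost regions 1 was still strong and 1 was already out at Day3. The members' median enrichment was 54.4 and 49.3 on Day0, 27.6 and 28.2 on Day3, and 13.4 and 14.8 on Day10. Its member with the best Day0 rank, chr3:41501722-41502146, had 86.5 and 73.9 on Day0, 32.6 and 31.3 on Day3, and 9.22 and 8.68 on Day10. These groups were picked as the densest of all, so their counts are a description.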

How the data were processed

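Peak lists of 6 ATAC-seq libraries were used, 2 per day. The submitters' processing notes name Trim Galore and mm10. No source used here names the aligner, the peak caller, its threshold or a Tn5 shift. The lists hold scaffold names of GRCm39, and promoters of GRCm38.p6 met a strong Day0 peak in 4.30% of cases, and in 2.75% after a shift of 1000000 bases, so positions are read as GRCm39. No genome or annotation of that build was used here, so the planned gene-start and motif shares were not computed. The deposited files give per peak, in narrowPeak order with no header, the authors' fold ratio, -log10 p, -log10 q, a score made from -log10 q (not used) and the summit position.

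The deposited fold ratio equals (pileup + 1) / (background + 1) with 1 background per library. Recovered pileups were whole within 0.001 in 100.0% of peaks, and the authors' -log10 p matched their Poisson tail within 0.001 in 100.0% of those computable. No recovered pileup exceeded 2 times the smallest peak width of its library, a limit that both Day10 libraries reached (136 and 144). The smallest pileup listed is 5 in every library. Total read numbers were not used. Ties in rank were ordered by chromosome number and start. From 381 to 563 peaks per library on other sequences were left out.

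Groups and replicate numbers come from the sample titles. The regions named are the 10 members with the best poorer Day0 rank, the 5 best and 5 poorest by their better Day3 rank, those nearest each limit, and the 3 densest groups within 500000 bases. Members and lists were chosen with earlier results of these data known. No test across regions was made. The region code was tested on simulated data. Python 3.11.15, numpy 2.4.6, pandas 2.3.3, scipy 1.17.1 and matplotlib 3.10.9 were used. Alternatives tried were other rank limits, overlap rules, a stricter -log10 q, fold limits, tie order, summit windows and leaving out each library.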

Additional observations from a re-analysis of the deposited data

How the results depend on the processing

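The count of 3865 members stayed within 1.5 times under every alternative run. It was 2663 and 4840 with strong ranks of 40000 and 60000, 4011 and 3355 with out ranks of 80000 and 120000, 3889 when a summit had to lie inside the region, 3867 with an overlap of at least 50 bases, 3865 with only peaks of -log10 q of 5 or more, 3863 with ties ordered as text, and 4296 with summit windows. Leaving out 1 library, which drops its conditions, gave 3393 to 4561. Replicate 1 or 2 of each day alone gave 4216 and 4235, and 2912 lay between the limits in both Day3 libraries (alternatives added after the data were seen). Of the 10 named members with the best Day0 ranks, 1 was still called with a strong rank of 60000, within which both Day3 ranks of the others lay, and 5 without Day3 replicate 2. The other rank limits, the overlap, summit, -log10 q, fold and tie rules, the summit windows and leaving out any other library called 9 or 10. For the alternatives added after the data were seen, these members were not counted.

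The share of lost regions that were intermediate, 62.1% in the main setting, depends on the limits by construction. It was 73.7% and 51.3% with strong ranks of 40000 and 60000, 48.9% and 69.8% with out ranks of 80000 and 120000, 54.5% with summit windows, 54.2% and 55.0% from replicate 1 or replicate 2 alone (added after the data were seen), and 54.4% to 63.95% without 1 library. It was 61.1% with fold limits. The median log2 difference in the members was -1.11 at Day3 against Day0. It was -0.99 on the authors' fold, -0.90 minus the median of regions strong on all 3 days, -0.79 minus that of regions strong at Day0 (both added after the data were seen), and -1.13 to -1.11 without 1 library. At Day10 against Day0 it was -2.43, and -2.00, -1.87, -1.72 and -2.45 to -2.41 in the same order. No paired analysis was possible because no result comes from a test that a replicate block could enter. Between libraries of the same number, the members' median log2 difference of Day3 from Day0 was -1.12 for replicate 1 and -1.13 for replicate 2. The gene-start and motif alternatives were not run, since they need an annotation and a genome of the build. Heights below the Day10 floor (enrichment of 4.61 and 4.34, the lowest of the 3 days) cannot be read. In neither Day10 library did 704 members have a listed peak.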
